A study of Homo sapiens with 8 samples.

Results

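The genes described here encode the transport machinery of the cilium and the enzymes and proteins that act on its microtubules. They were taken from the table of HT29 mRNA-seq values by name: every symbol made of IFT, BBS or TTLL and a number, together with TTC8, DYNC2H1, TPPP and TPPP3. This gave 38 of the 38148 genes in the table. Antisense, intronic and pseudogene names (IFT74-AS1, TTLL10-AS1, TTLL7-IT1, TTLL11-IT1 and TTLL13P) and TPPP2, which the names do not match, were left out.

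Cilia are microtubule-based extensions that most cells build from the mother centriole after leaving the cell cycle and take down before division. Cargo is carried along the ciliary microtubules by intraflagellar transport (IFT) trains, in which the IFT-B complex works with kinesin-2 towards the tip and the IFT-A complex works with dynein-2 on the way back, while the BBSome links membrane proteins to these trains. Enzymes of the TTLL family add chains of glutamate or glycine to tubulin tails, marks that are abundant on ciliary and other stable microtubules. TPPP and TPPP3 bind and bundle microtubules.

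HT29 cells derive from a human colorectal cancer with mutant BRAF. Selumetinib is an inhibitor of MEK, which lies below BRAF and above ERK. Some cells received selumetinib at 1 μM over 24 h and others no drug, and both were then fixed with glyoxal, stained for cyclin B1 (CCNB1, a G2 marker) and sorted, which gave 4 groups of 2 libraries: untreated CCNB1-negative, untreated CCNB1-positive, selumetinib CCNB1-negative and selumetinib CCNB1-positive. The comparisons ask how the drug changes expression in each fraction, and whether cells that reach G2 in the drug differ from those that do not. Nothing in the labels says that the 2 libraries of a group came from separate cultures, so p-values measure the spread between these libraries.

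For each of the 8 libraries, the title and the growth medium label name the opposite treatment to the short description, and the title also names the opposite fraction. Groups follow the descriptions, which are also the column names of the table. The log2 value of CCNB1 was 11.66 and 12.01 in the libraries described as untreated CCNB1-negative and 13.79 and 14.05 in those described as untreated CCNB1-positive, against 7.92 and 7.22 and then 12.76 and 12.53 in the corresponding selumetinib fractions, so it was higher in both positive fractions as described. DUSP6, a phosphatase that is a known ERK target gene, had log2 values of 10.56 to 11.38 in the 4 libraries described as untreated and 9.21 to 9.89 in the 4 described as treated. For SPRY4, another such target, these were 9.43 to 10.17 and 8.19 to 9.02. Neither gene overlapped between the treatments, and both were lower in the libraries described as treated. Under the titles, each response below would belong to the other fraction with its sign changed. Recovered reads on genes ranged from 12696860 to 23916160 per library. The share of mitochondrially encoded reads was 4.44 to 7.80% in untreated and 11.9 to 14.8% in treated libraries, and that of MALAT1, a nuclear RNA, 0.303 to 0.386% and 2.01 to 4.42%. Nuclear scaling, to reads from neither mitochondrial genes nor MALAT1, raised the median change of all genes after selumetinib by 0.18 in CCNB1-negative and by 0.15 in CCNB1-positive cells, and any further part of these shifts in the results was not tested.

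Of the 38 genes, 33 had a mean of at least 1 RPM (reads per 1000000 reads on genes), which is 4.58 on the log2 scale, and were tested. BBS5, TTLL2, TTLL6, TTLL8 and TTLL9 fell below this and are given by their reads. TTLL7 passed only because of its treated libraries, so that it had to differ. Values below are log2 reads scaled to the largest library, and changes are differences of these values with their standard error (SE). Where a pair of changes is given, the CCNB1-negative value comes before the CCNB1-positive one. In the plot of values by library, the treated libraries of many genes stand clear of the untreated ones, above them for DYNC2H1, BBS9, TTLL3 and TTLL1 and below them for TTLL12. Most genes of the table did so too. In CCNB1-negative cells the treated libraries lay above the untreated ones in 44.6% of all genes tested and below them in 41.9%. Of the 33 genes, 26 lay above and 5 below. For CCNB1-positive cells these were 48.6% and 37.1% of all genes, and 23 and 4 of the 33.

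**Figure D1:**
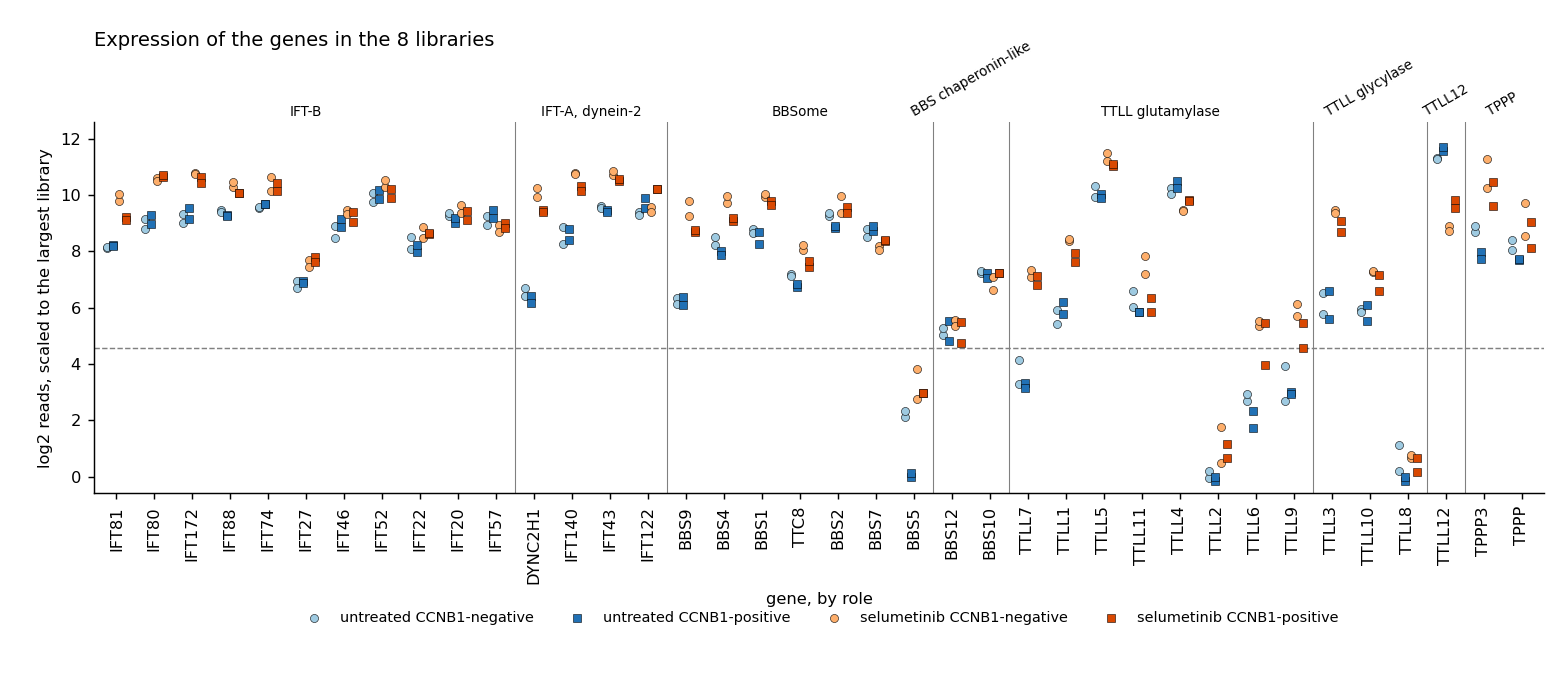
Log2 reads, scaled to the largest library, of the 38 genes (x axis, grouped by role) in each of the 8 libraries; each point is 1 library, circles are CCNB1-negative and squares CCNB1-positive, blue untreated and orange selumetinib, and the dashed line is the limit of 4.58 for testing. DYNC2H1 lies between 6.18 and 6.69 in untreated and between 9.39 and 10.25 in treated libraries, while TTLL12 lies between 11.27 and 11.69 and then between 8.73 and 9.83.

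Promoters are shown first because many genes of this kind are known targets of RFX transcription factors, which bind the X-box, a motif built from 2 half-sites. RefSeq promoter windows (GRCh38.p14, 250 bases before to 50 after each start) were found for 34 of the 38 genes. BBS9, IFT22, TPPP3 and TTLL4 had none. The half-site letters GTTGCC, read on either strand (GGCAAC on the other), stood in 17 of the 34 genes, or 50% of them, against 14.6% of all genes with a window and 16.7% of the genes tested. Counted over windows, they stood in 41.9% of 43 against 12.2% of all 35116. The variant GTTACC (or GGTAAC), whose matches cannot be the same bases, stood in 6.98% of these windows against 6.46% of all. A match is a description of the letters and not a bound site. The 10 genes that rose in both fractions (below) and hold the half-site follow, each with up to 20 bases on either side of its match nearest the start, at most 30 bases past the start, and the half-site in capitals. They are written 5′ to 3′ on the strand of the gene.
DYNC2H1, chr11:103109421-103109455, plus strand: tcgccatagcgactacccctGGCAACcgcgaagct
TTLL1, chr22:43089430-43089475, minus strand: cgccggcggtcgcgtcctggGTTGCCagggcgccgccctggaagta
IFT81, chr12:110124337-110124382, plus strand: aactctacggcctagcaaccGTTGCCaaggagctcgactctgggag
BBS1, chr11:66510616-66510661, plus strand: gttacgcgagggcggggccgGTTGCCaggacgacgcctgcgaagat
TTC8, chr14:88824597-88824642, plus strand: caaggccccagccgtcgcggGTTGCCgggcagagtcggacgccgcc
IFT88, chr13:20567153-20567186, plus strand: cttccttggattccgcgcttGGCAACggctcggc
IFT74, chr9:26956364-26956409, plus strand: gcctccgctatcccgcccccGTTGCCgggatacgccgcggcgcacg
IFT27, chr22:36776135-36776180, minus strand: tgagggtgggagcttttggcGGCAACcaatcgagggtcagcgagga
TTLL10, chr1:1173846-1173891, plus strand: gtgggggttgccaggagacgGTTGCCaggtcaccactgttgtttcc
TTLL5, chr14:75660996-75661025, plus strand: agcgGTTGCCgctgcctaagcctctcccca
The match of IFT81 began at the start base itself, and that of BBS1 1 base past it. In TTLL1 it began 64 bases before the start and in IFT27 41 bases before it, while in TTLL5 it lay 246 bases upstream. Of the tested genes with a promoter window, 14 held the half-site, and 12 of them rose in the CCNB1-negative and 11 in the CCNB1-positive fraction. Of the 15 without it, 9 rose in each fraction, so genes of both kinds rose. Over all genes tested, 38.2% rose in the CCNB1-negative and 38.0% in the CCNB1-positive fraction. These shares were not computed for all genes with and without the half-site, and a link between half-site and response was not tested.

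After selumetinib, 23 of the 33 genes were higher in CCNB1-negative cells and 3 were lower (limma with Benjamini-Hochberg adjustment over 14219 genes, adjusted p under 0.05). Over all genes tested, 38.2% were higher and 35.8% lower. The CCNB1-positive fraction again had 23 higher and 3 lower, beside 38.0% and 27.3% of all genes. The median change of the 33 genes was 0.97 and 0.81, against 0.05 and 0.17 over all genes. In both fractions 20 genes were higher, which is 60.6% of them and 33.3% of all genes, while 3 (BBS7, TTLL4 and TTLL12) were lower, 9.09% against 26.0%. BBS10, BBS12, IFT20 and IFT57 passed in neither fraction, and none changed in opposite directions. Without TTLL7, 22 of 32 were higher in each fraction. Quantile normalization moved the median of all genes by -0.13 and -0.24. With it 19 and 17 genes were higher and 4 and 7 lower. Of all genes, 34.6% and 28.0% were then higher and 38.3% and 30.9% lower. The median change of the genes above that of all genes was 0.90 and 0.57 in place of 0.92 and 0.64. With nuclear scaling 25 and 23 genes were higher and 2 and 2 lower, while 42.8% and 43.0% of all genes were higher and 30.6% and 21.8% lower. In these bulk libraries, a change in the share of cells expressing a gene and a change in RNA per cell cannot be told apart.

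**Figure D2:**
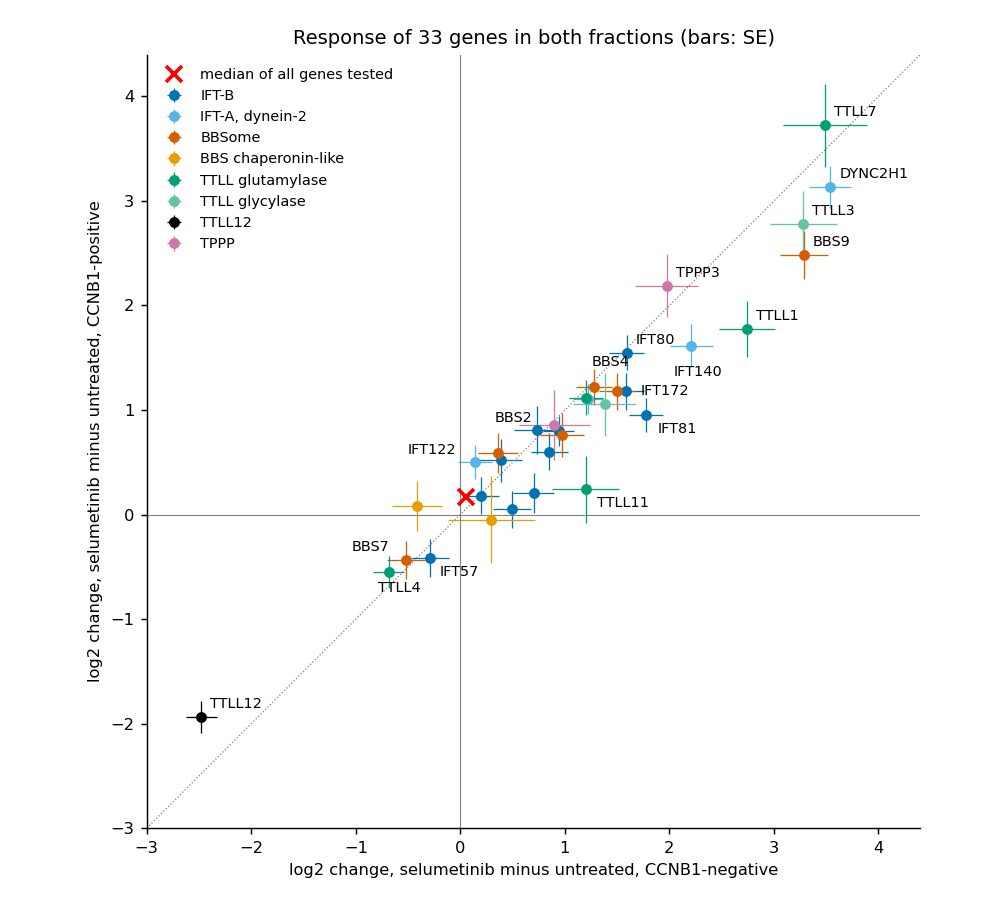
Log2 change after selumetinib in CCNB1-negative (x axis) and CCNB1-positive cells (y axis) for the 33 tested genes, coloured by role, with bars for the SE of the limma fit; the dotted line marks equal change and the red cross the median of all genes tested. Most genes lie above 0 on both axes, with DYNC2H1 at 3.54 and 3.13 and TTLL7 at 3.49 and 3.72, and TTLL12 stands alone at -2.48 and -1.94.

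The study's own ontology analysis of these libraries names TTLL1, TTLL3, TTLL6, TPPP, TPPP3 and BBS2 under microtubule bundle formation, so their direction is not independent evidence. Without them, 19 and 18 of 28 tested genes (67.9% and 64.3%) were higher and 3 (10.7%) lower in each fraction. Over all genes, 38.2% and 38.0% were higher and 35.8% and 27.3% lower. These 28 genes are not independent evidence either, because the group was chosen with earlier results of these data known. Of the 20 genes higher in both fractions, 15 kept both calls whichever library was left out, and 16 kept them under quantile normalization, nuclear scaling and limma-voom. IFT27, TPPP, TTC8 and TTLL10 lost a call in both exercises, and IFT74 when a library was left out.

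The largest rise in CCNB1-negative cells, close to that of TTLL7 within their SE, was that of DYNC2H1 (ENSG00000187240, chr11:103109410-103479863 of GRCh38, plus strand), the motor heavy chain of dynein-2. Its log2 values were 6.69 and 6.40 in untreated CCNB1-negative, 6.41 and 6.18 in untreated CCNB1-positive, 9.92 and 10.25 in treated CCNB1-negative and 9.47 and 9.39 in treated CCNB1-positive cells. All treated libraries lay above all untreated ones. The change was 3.54 ± 0.20 (SE, adjusted p = 6.79e-09), or 11.6-fold, in CCNB1-negative and 3.13 ± 0.20 (adjusted p = 9.78e-08), or 8.78-fold, in CCNB1-positive cells. Per length, DYNC2H1 went from 0.261 ± 0.039 to 3.35 ± 0.58 RPKM (RPM per kilobase of exon, SD, n = 2) in CCNB1-negative cells.

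IFT140 is a core subunit of IFT-A. It had log2 values of 8.86 and 8.25 in untreated and 10.79 and 10.74 in treated CCNB1-negative cells, and of 8.81 and 8.39 and then 10.30 and 10.13 in CCNB1-positive cells. The groups did not overlap in either fraction, and the changes were 2.21 ± 0.20 (adjusted p = 3.86e-07) and 1.62 ± 0.20 (adjusted p = 1.50e-05). IFT43 rose by 1.22 ± 0.14 and 1.10 ± 0.14. It overlaps TTLL5 on the same strand of chromosome 14, and the annotation has them share 85 exonic bases. IFT122 passed in CCNB1-positive cells, with 0.51 ± 0.16 (adjusted p = 0.0142), and not in CCNB1-negative cells, with 0.14 ± 0.16 (adjusted p = 0.456), and the difference between these responses did not pass (adjusted p = 0.388). Its call was lost without untreated CCNB1-positive replicate 2 (0.32), or without replicate 1 or 2 of the treated CCNB1-positive libraries (0.51 each).

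IFT-B, the complex of the outward train, had 11 genes. Of these, 8 rose in the CCNB1-negative and 7 in the CCNB1-positive fraction and none fell. Over all genes tested, 38.2% and 38.0% rose and 35.8% and 27.3% fell. IFT81, which with IFT74 forms a module that binds tubulin cargo, had log2 values of 8.11 and 8.14 in untreated and 9.79 and 10.02 in treated CCNB1-negative cells. In CCNB1-positive cells it had 8.22 and 8.19 and then 9.22 and 9.10. IFT81 thus stood at one level in all untreated libraries and higher in the treated CCNB1-negative than in the treated CCNB1-positive ones, with changes of 1.78 ± 0.16 (adjusted p = 3.92e-07) and 0.95 ± 0.16 (adjusted p = 0.000196). The difference between these responses did not pass by the interaction term, although it passed in some alternative fits (below). Its call between treated fractions was lost without replicate 2 of the treated CCNB1-negative (-0.63) or CCNB1-positive libraries (-0.68).

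IFT80 rose by 1.59 ± 0.17 and 1.55 ± 0.17, and IFT172, the largest IFT-B subunit, by 1.58 ± 0.18 and 1.18 ± 0.18. IFT80 shares 1953 exonic bases with AC079594.2 on the same strand, which changed by 1.13 and 0.91, and 243 bases with SMC4, a condensin subunit on the opposite strand, which changed by -2.03 and 0.04. Whether the counting used strand is not stated in the sources used here, so reads of genes that overlap cannot be assigned with certainty. IFT88, a core subunit without which cilia do not form, rose by 0.94 ± 0.14 and 0.80 ± 0.14, and IFT74 by 0.85 ± 0.17 and 0.60 ± 0.17. The IFT74 call in CCNB1-positive cells was lost without selumetinib CCNB1-positive replicate 2 (0.45).

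The remaining IFT-B genes had smaller changes or did not pass. IFT27, a small GTPase that works with the BBSome, rose by 0.74 ± 0.23 and 0.81 ± 0.23 with between 83 and 198 reads per library. With quantile normalization these were 0.11 and 0.03, and neither passed. Its calls were also lost without untreated CCNB1-negative replicate 2 (0.61), selumetinib CCNB1-negative replicate 1 (0.60) or selumetinib CCNB1-positive replicate 1 (0.73). IFT46 passed in CCNB1-negative cells alone (0.70 ± 0.19, adjusted p = 0.0048) and changed by 0.21 ± 0.19 in CCNB1-positive cells, and its call was lost without untreated CCNB1-negative replicate 1 (0.48). IFT52 did likewise, with 0.49 ± 0.18 (adjusted p = 0.0221) and 0.05 ± 0.18, and its call was lost without untreated CCNB1-negative replicate 1 (0.33) or selumetinib CCNB1-negative replicate 2 (0.37). Neither difference between fractions passed, at adjusted p = 0.328 for IFT46 and 0.343 for IFT52, but that of IFT46 passed with a limma block for pairs of fractions (below, adjusted p = 0.0371).

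IFT22, a small GTPase of the complex, had 0.39 ± 0.21 (adjusted p = 0.105) and 0.52 ± 0.21 (adjusted p = 0.0397). It shares 3887 exonic bases with AC006329.1 on the opposite strand, which changed by -2.99 and -3.04. Its call in CCNB1-positive cells was lost when any 1 of the 4 libraries was left out (0.40 to 0.64) and with limma-voom (0.38) or quantile normalization (0.13), and in CCNB1-negative cells IFT22 passed without untreated replicate 2 (0.61) or treated replicate 2 (0.58), with nuclear scaling (0.56) and with a pseudocount of 0.1 RPM (0.52). IFT20, which also works at the Golgi, had 0.20 ± 0.17 and 0.18 ± 0.17, with 95% intervals from -0.18 to 0.57 and from -0.19 to 0.56. IFT57 had -0.29 ± 0.18 and -0.42 ± 0.18 (adjusted p = 0.166 and 0.057). In CCNB1-positive cells IFT57 passed as lower with quantile normalization (-0.60), with limma-voom (-0.55) and without untreated CCNB1-positive replicate 1 (-0.55).

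Among the 6 tested BBSome subunits, 4 rose and 1 fell in CCNB1-negative cells, and 5 rose and 1 fell in CCNB1-positive cells. All genes tested had 38.2% and 38.0% higher and 35.8% and 27.3% lower. BBS9 (ENSG00000122507, chr7:33129244-33606068, plus strand), the subunit at the centre of the complex, moved most. Its log2 values were 6.33 and 6.14 in untreated and 9.24 and 9.80 in treated CCNB1-negative cells, and 6.39 and 6.11 and then 8.70 and 8.76 in CCNB1-positive cells. Treated libraries were all above untreated ones, by 3.29 ± 0.23 (9.76-fold, adjusted p = 3.51e-08) and 2.48 ± 0.23 (5.58-fold, adjusted p = 1.32e-06).

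BBS4, which binds the centriolar satellite protein PCM1, rose by 1.50 ± 0.17 and 1.18 ± 0.17, and BBS1, which recognises membrane cargo, by 1.28 ± 0.17 and 1.22 ± 0.17. BBS1 shares 3311 exonic bases with the same-strand gene AP002748.4, which changed by 0.35 and 0.46. TTC8 (BBS8) rose by 0.97 ± 0.21 and 0.76 ± 0.21, but the second value was -0.08 with quantile normalization and its call was lost without selumetinib CCNB1-positive replicate 2 (0.66). BBS2 passed in CCNB1-positive cells alone (0.59 ± 0.19, adjusted p = 0.0148, against 0.36 ± 0.19). That call was lost without untreated CCNB1-positive replicate 1 (0.55) or selumetinib CCNB1-positive replicate 1 (0.50) and with quantile normalization (0.43). In CCNB1-negative cells BBS2 passed without selumetinib CCNB1-negative replicate 2 (0.67), with nuclear scaling (0.54) and with a pseudocount of 0.1 RPM (0.50).

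BBS7 was the subunit that fell. It had 8.50 and 8.78 in untreated and 8.20 and 8.04 in treated CCNB1-negative cells, and 8.73 and 8.89 and then 8.37 and 8.38 in CCNB1-positive cells, with changes of -0.52 ± 0.18 (adjusted p = 0.0172) and -0.43 ± 0.18 (adjusted p = 0.0459). With nuclear scaling BBS7 had -0.34 and -0.29 and passed in neither fraction. Its call in CCNB1-negative cells was also lost without untreated or treated replicate 2 (-0.38 and -0.44), and that in CCNB1-positive cells when any 1 of the 4 libraries was left out (-0.51 to -0.35). BBS10 and BBS12, which resemble chaperonins and help assemble the BBSome, had -0.41 ± 0.24 and 0.08 ± 0.24, and 0.30 ± 0.42 and -0.05 ± 0.42. BBS10 passed as lower in both fractions with quantile normalization (-1.17 and -0.73) and in CCNB1-negative cells without treated replicate 1 (-0.64), and BBS12 passed as lower in CCNB1-positive cells with quantile normalization (-1.27). BBS12 rested on 17 to 42 reads per library. BBS5 had 10 reads over the 4 untreated and 25 over the 4 treated libraries.

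The TTLL family moved in both directions. TTLL7 (ENSG00000137941, chr1:83865024-83999150, minus strand), which glutamylates beta-tubulin, had 9 and 14 reads in untreated CCNB1-negative, 10 and 8 in untreated CCNB1-positive, 86 and 95 in treated CCNB1-negative and 98 and 88 in treated CCNB1-positive libraries. Every treated library thus held more TTLL7 reads than any untreated one. On the log2 scale TTLL7 changed by 3.49 ± 0.40 and 3.72 ± 0.40, from 0.054 ± 0.022 to 0.646 ± 0.089 RPKM (SD, n = 2) in CCNB1-negative cells. Because it passed the limit for testing only through its treated libraries, its p-values are no evidence of a change and are not given.

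TTLL1 (ENSG00000100271, chr22:43039516-43089419, minus strand), the catalytic subunit of a glutamylase of ciliary tubulin, had log2 values of 5.90 and 5.42 in untreated and 8.36 and 8.45 in treated CCNB1-negative cells. In CCNB1-positive cells these were 6.21 and 5.78 and then 7.93 and 7.61. The groups were apart in both fractions, with changes of 2.74 ± 0.27 (6.70-fold, adjusted p = 6.14e-07) and 1.77 ± 0.27 (3.42-fold, adjusted p = 6.20e-05). TTLL5, which glutamylates alpha-tubulin, rose by 1.20 ± 0.16 and 1.12 ± 0.16, close to its neighbour IFT43.

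TTLL11, which elongates glutamate chains, passed in CCNB1-negative cells (1.20 ± 0.32, adjusted p = 0.00381) and not in CCNB1-positive cells (0.24 ± 0.32, adjusted p = 0.524). The difference of the responses did not pass (adjusted p = 0.255), except narrowly with a limma block for pairs of fractions (below, adjusted p = 0.0496). With quantile normalization these changes were 0.53, which did not pass, and -0.86, which passed as lower. Without selumetinib CCNB1-negative replicate 2 the first was 0.88 and did not pass. TTLL6 and TTLL9, below the limit for testing, had 20 and 33 reads over the 4 untreated and 95 and 123 over the 4 treated libraries. TTLL2 had 0 and 5 reads, where a count of 0 allows up to 3, and TTLL8, a glycylase, had 2 and 4.

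The glycylases TTLL3 and TTLL10 both rose. TTLL3 (ENSG00000214021, chr3:9808086-9855138, plus strand), which starts glycine chains, had log2 values of 6.51 and 5.76 in untreated and 9.47 and 9.37 in treated CCNB1-negative cells, and of 6.58 and 5.59 and then 9.06 and 8.68 in CCNB1-positive cells. The untreated replicates differed by more than the treated ones, yet stayed well below them, and the changes were 3.28 ± 0.32 (9.73-fold, adjusted p = 5.80e-07) and 2.78 ± 0.32 (6.87-fold, adjusted p = 6.37e-06). TTLL3 shares 2217 exonic bases with the read-through gene ARPC4-TTLL3, which has higher values (11.04 to 11.88) and changed the other way, by -0.63 and -0.45, so that the reads of these genes could be split between them in a way the table does not show. TTLL10, which elongates glycine chains in other mammals, rose by 1.38 ± 0.30 and 1.06 ± 0.30. In CCNB1-positive cells its change was -0.01 with quantile normalization, and the call was lost without untreated CCNB1-positive replicate 2 (0.76) or selumetinib CCNB1-positive replicate 1 (0.77). In CCNB1-negative cells it was 0.59 with quantile normalization and did not pass.

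TTLL12 (ENSG00000100304, chr22:43166622-43187134, minus strand), a family member without known glutamylase or glycylase activity, fell the most. Its log2 values were 11.30 and 11.27 in untreated and 8.88 and 8.73 in treated CCNB1-negative cells, and 11.57 and 11.69 and then 9.55 and 9.83 in CCNB1-positive cells. No treated library came near an untreated one, and the changes were -2.48 ± 0.15 (5.57-fold lower, adjusted p = 1.03e-08) and -1.94 ± 0.15 (3.83-fold lower, adjusted p = 3.48e-07). TTLL12 had the highest level per length of the 38 genes in untreated CCNB1-negative cells, 22.5 ± 0.6 RPKM (SD, n = 2), ahead of IFT52 with 16.0 ± 2.4, and stood at 4.46 ± 0.28 RPKM after treatment. TTLL4, which starts glutamate branches, had 10.23 and 10.04 in untreated and 9.47 and 9.43 in treated CCNB1-negative cells, and 10.49 and 10.25 and then 9.83 and 9.80 in CCNB1-positive cells. The changes of TTLL4 were -0.69 ± 0.15 (adjusted p = 0.000916) and -0.55 ± 0.15 (adjusted p = 0.00543), of which the second call was lost without untreated CCNB1-positive replicate 1 (-0.43).

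TPPP3 and TPPP both rose, with a wide spread between treated replicates. TPPP3 (ENSG00000159713, chr16:67389809-67393518, minus strand) had 8.70 and 8.88 in untreated and 11.29 and 10.24 in treated CCNB1-negative cells, and 7.96 and 7.71 and then 10.45 and 9.59 in CCNB1-positive cells. The treated libraries were above the untreated ones in each fraction, and the first replicate was the higher in both, with changes of 1.97 ± 0.30 (adjusted p = 4.31e-05) and 2.19 ± 0.30 (adjusted p = 3.11e-05). After treatment TPPP3 had the highest level per length among the 38 genes in CCNB1-negative cells, 32.7 ± 15.6 RPKM (SD, n = 2), a mean that its spread does not separate from the 24.7 ± 3.2 of IFT52. TPPP had 8.40 and 8.06 and then 9.71 and 8.55 in CCNB1-negative cells and 7.70 and 7.72 and then 9.04 and 8.10 in CCNB1-positive cells, with changes of 0.90 ± 0.34 (adjusted p = 0.0263) and 0.86 ± 0.34 (adjusted p = 0.0374). These calls rested on the first treated replicates: without them the values were 0.32 and 0.39 and neither passed. They were also lost without untreated CCNB1-negative replicate 2 (0.73), or either untreated CCNB1-positive library (0.85 and 0.87), and with quantile normalization (0.82 and 0.40). TPPP shares 404 exonic bases with CEP72 on the opposite strand, which changed by -1.36 and -0.44.

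Some genes of the group share exons with another tested gene. The 20 tested genes that do not had 14 higher and 3 lower in CCNB1-negative cells and 11 higher and 3 lower in CCNB1-positive cells, with median changes of 0.96 and 0.78. Higher were thus 70% and 55% of them, where the 33 genes had 69.7% in each fraction and all genes 38.2% and 38.0%. Lower were 15% in each fraction, beside 35.8% and 27.3% of all genes. Overlaps with tested genes not given above include BBS1 with ZDHHC24 (759 exonic bases), TTLL9 with PDRG1 (664) and BBS2 with OGFOD1 (498). IFT20 with TMEM97 (361) and IFT122 with MBD4 (279) are others, all on opposite strands. TTLL5 shares 332 bases with FLVCR2 on the same strand. PDRG1 had a mean log2 value of 10.38, against 4.30 for TTLL9.

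The change after selumetinib moved with the span of a gene over all genes tested, and many of these genes are long. In CCNB1-negative cells, 25.3% of genes were higher in the lowest of 4 equal classes of span, 27.9% in the next, 36.2% in the one after and 63.6% in the class of the longest genes. In CCNB1-positive cells these shares were 28.8, 28.1, 35.5 and 59.5%. The 33 genes fell into these classes as 5, 5, 11 and 12, of which 1, 4, 7 and 11 were higher in CCNB1-negative and 2, 3, 7 and 11 in CCNB1-positive cells. The longest, BBS9 with 476825 bases and DYNC2H1 with 370454, were among the largest rises, while TPPP3 rose with a span of 3710 bases. The part of span in the rise of these genes was not tested.

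**Figure D3:**
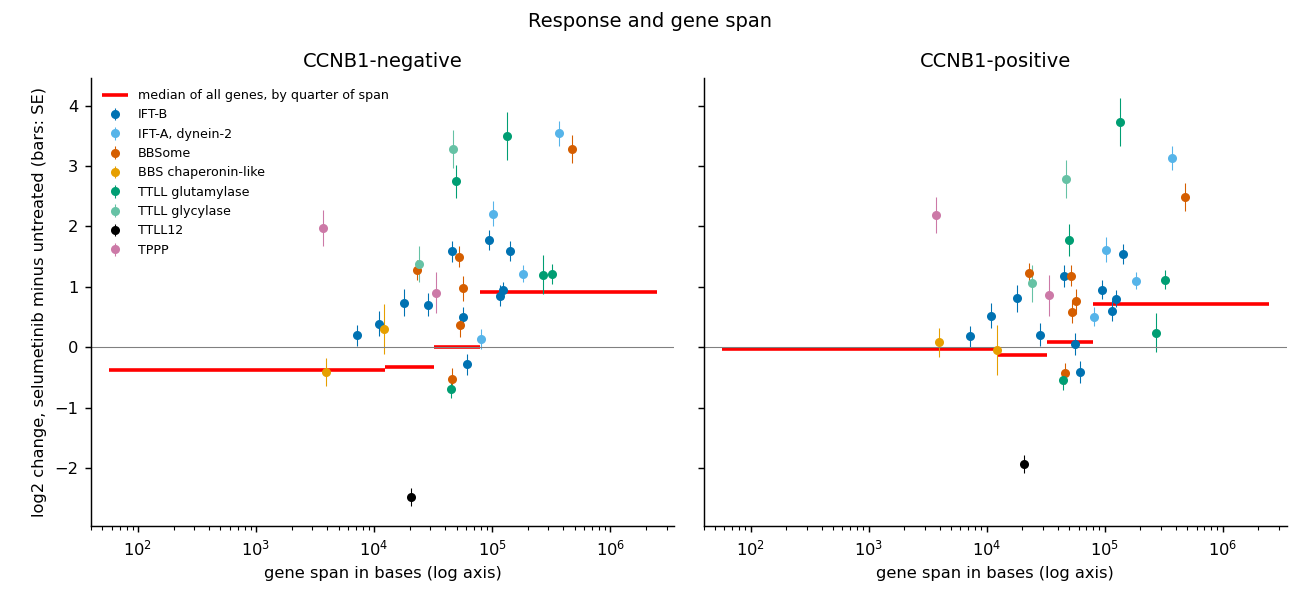
Log2 change after selumetinib (y axis, bars are SE) against the span of the gene in bases on a log axis for the 33 tested genes, coloured by role, in CCNB1-negative (left) and CCNB1-positive cells (right); red lines give the median change of all genes tested in each of the 4 classes of span. The red line of the longest class lies at 0.91 and 0.71, and TTLL7, DYNC2H1 and BBS9 lie above it.

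Between the CCNB1-positive and CCNB1-negative fractions of untreated cells, 0 of the 33 genes passed (limma, adjusted p under 0.05), where 1.36% of all genes were higher and 1.51% lower in the positive fraction. At an unadjusted p under 0.05 there were 5 (BBS2, BBS4, IFT122, TPPP3 and TTLL12) beside 13.5% of all genes, and limma-voom also called none. The largest difference was that of TPPP3, lower in CCNB1-positive cells by 0.96 ± 0.30 on the log2 scale (95% interval of the difference -1.60 to -0.31, adjusted p = 0.132), and it passed when only the untreated groups were fitted. Same-numbered fractions of a treatment varied together, although no label says that they share a culture. With a limma block for these pairs, IFT122 and TTLL12 were higher and BBS2, BBS4, TPPP and TPPP3 lower. All genes had 4.75% higher and 8.78% lower with that block.

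In treated cells, 2 genes were higher and 5 lower in the CCNB1-positive fraction, beside 13.8% and 7.87% of all genes. TTLL12 was higher by 0.88 ± 0.15 (adjusted p = 0.00101) and IFT122 by 0.75 ± 0.16 (adjusted p = 0.00563). Lower were TTLL11 (-1.41 ± 0.32, adjusted p = 0.00753), BBS9 (-0.79 ± 0.23, adjusted p = 0.0267), IFT81 (-0.75 ± 0.16, adjusted p = 0.00639), BBS4 (-0.73 ± 0.17, adjusted p = 0.0103) and DYNC2H1 (-0.66 ± 0.20, adjusted p = 0.0334). The median difference over the 33 genes was -0.26 against 0.02 over all genes. Each of the 5 lower calls was lost when 1 treated library was left out. Without selumetinib CCNB1-negative replicate 2, IFT122 lost its call (0.66) and 1 gene was lower, TPPP3 (-1.26), which was not among the 5. In that setting the others were -1.09 for TTLL11, -0.51 for BBS9, -0.63 for IFT81, -0.61 for BBS4 and -0.49 for DYNC2H1. Without selumetinib CCNB1-positive replicate 1, 2 genes were lower, IFT81 and TPPP3, and without replicate 2, 2 were lower, BBS4 and TTLL11. All 5 passed with quantile normalization and with limma-voom, in each of which 9 genes were lower, beside 15.3% and 12.8% of all genes. With the block for pairs of fractions 3 genes were higher and 15 lower, beside 27.0% and 19.9% of all genes.

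**Figure D4:**
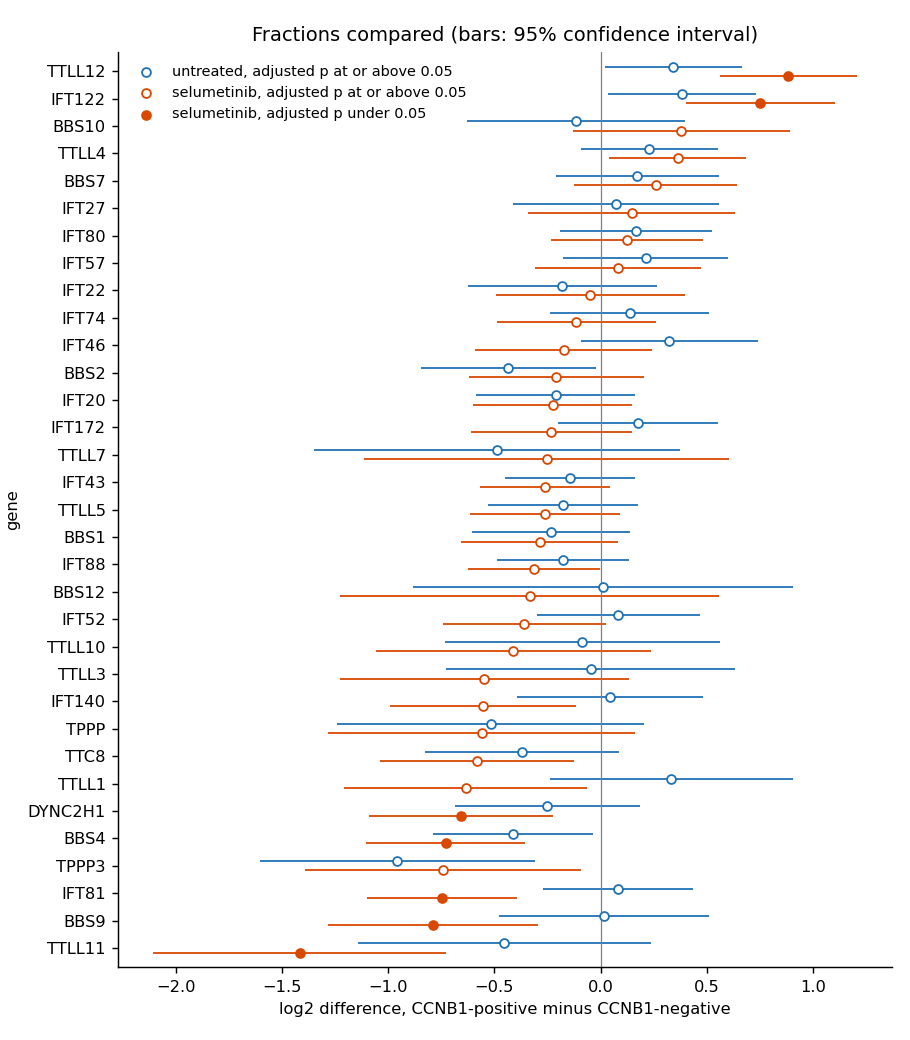
Log2 difference between CCNB1-positive and CCNB1-negative cells (x axis) for the 33 tested genes (y axis, in order of the treated value), in untreated (blue) and treated cells (orange); bars are 95% confidence intervals of the limma fit and filled points passed at an adjusted p under 0.05. No blue point is filled, and TTLL12 and IFT122 at the top and TTLL11, BBS9, IFT81, BBS4 and DYNC2H1 near the bottom are filled in orange.

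By the interaction term, 0 of the 33 responses differed between the fractions (limma, adjusted p under 0.05), where 4.99% of all genes had a more positive and 0.345% a more negative response in CCNB1-positive cells. This count depended on the fit. With the block for pairs of fractions 1 gene passed as more positive (TTLL12) and 7 as more negative, beside 19.3% and 7.81% of all genes. The 7 were BBS9, IFT46, IFT81, IFT140, IFT172, TTLL1 and TTLL11. At an unadjusted p under 0.05 there were 4 genes, beside 20.1% of all genes, of which IFT81 (-0.83 ± 0.23, adjusted p = 0.0577), TTLL1 (-0.97 ± 0.38, adjusted p = 0.166) and BBS9 (-0.81 ± 0.33, adjusted p = 0.185) had more negative changes in CCNB1-positive cells and TTLL12 a less negative one (0.54 ± 0.21, adjusted p = 0.171). IFT81 passed with limma-voom (-0.91, adjusted p = 0.0417), and with quantile normalization IFT81 (-1.07), BBS9 (-1.18) and TTLL1 (-1.37) all passed. Without selumetinib CCNB1-negative replicate 1 both IFT81 (-0.94) and BBS9 (-1.09) passed. DYNC2H1 had a difference of -0.41 with a 95% interval from -1.02 to 0.21, and TTLL7 one of 0.23 from -0.98 to 1.45.

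Other genes of the same machinery were taken from lists of known roles. Their counts, here and in the next paragraphs, stand beside 38.2% and 38.0% of all genes tested that were higher. Lower were 35.8% and 27.3% of all genes. Of 16 tested IFT and motor subunits that go by other names, 10 were higher in each fraction, 2 were lower in the CCNB1-negative and 0 in the CCNB1-positive fraction, with medians of 0.90 and 0.77. WDR60, a dynein-2 intermediate chain, rose by 2.17 ± 0.18 and 1.69 ± 0.18, and TRAF3IP1 (IFT54) by 1.45 ± 0.18 and 1.09 ± 0.18. Of 18 other tested enzymes and partners that modify tubulin, 13 and 12 were higher and 3 and 1 lower, with medians of 1.00 and 0.76. C11orf49 rose by 2.55 ± 0.19 and 1.69 ± 0.19 and the deglutamylase AGBL2 by 2.30 ± 0.53 and 3.02 ± 0.53, while TPGS2, a subunit of the TTLL1 complex, changed by -1.23 ± 0.15 and -0.61 ± 0.15. All 3 of these genes passed in both fractions. Whether AGBL2, whose SE is above that of TTLL7, reached the limit for testing in its untreated libraries was not checked.

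Of 9 partners of the BBSome, 3 and 1 were higher and 5 and 2 lower, with medians of -0.34 and -0.19. SDCCAG8, a centrosomal protein, rose by 1.69 ± 0.17 and 1.15 ± 0.17, whereas MKKS (BBS6) and the chaperonin subunit CCT2 fell. Both are known for BBSome assembly, and their changes were -1.62 ± 0.18 and -0.82 ± 0.18 for MKKS and -2.73 ± 0.19 and -1.96 ± 0.19 for CCT2. Of 20 genes of the transition zone and ciliary membrane, 11 and 13 were higher and 3 and 1 lower, among them TMEM67 (1.95 ± 0.18 and 1.35 ± 0.18) and TMEM216 (-0.51 ± 0.19 and -0.65 ± 0.19). Of 7 RFX and multiciliation regulators, 4 and 3 were higher and 1 and 0 lower, and RFX2 and RFX3 rose by 1.74 ± 0.19 each in CCNB1-negative and by 1.09 ± 0.19 and 1.17 ± 0.19 in CCNB1-positive cells.

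Of 12 genes known for cilium disassembly or for capping the mother centriole, 4 and 5 were higher and 7 and 4 lower, with medians of -0.58 and 0.17. The mitotic kinases PLK1 and NEK2 fell, with changes of -3.32 and -3.57 in CCNB1-negative cells and of -1.36 and -0.76 in the CCNB1-positive fraction. TTBK2, a kinase that starts cilium formation, rose by 1.55 ± 0.18 and 1.11 ± 0.18, and the centriolar protein OFD1 by 1.26 ± 0.17 and 1.10 ± 0.17.

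Markers of other cells were read beside these results, and beside the 38.2% and 38.0% of all genes higher and the 35.8% and 27.3% lower. Among 14 motile cilium markers, 3 were tested, and all 3 rose in both fractions, with medians of 1.35 and 1.01, among them DNAH5 (1.52 ± 0.24 and 1.41 ± 0.24) and CCDC40 (1.35 ± 0.19 and 0.78 ± 0.19). The list summed to 28.1 to 47.1 RPM in untreated and 70.4 to 122 RPM in treated libraries, and TEKT1 was the gene with at most 3 reads in every library. FOXJ1, the regulator of motile cilia, belonged to the regulator list and had 7 to 20 reads per untreated and 13 to 49 per treated library. The part of these genes in the results was not tested. All 10 colorectal epithelium markers were tested, 2 and 3 higher and 4 and 2 lower, and they summed to between 10783 and 12081 RPM in untreated and between 5421 and 9166 RPM in treated libraries. CEACAM5 and EPCAM fell, with changes of -4.04 and -1.34 in CCNB1-negative cells and of -2.15 and -0.83 in the CCNB1-positive fraction, while CDX2 rose by 1.06 ± 0.32 and 1.14 ± 0.32 and VIL1 by 0.73 ± 0.15 and 0.58 ± 0.15. Of 10 stromal and blood markers 2 were tested. The list summed to 7.19 to 18.0 RPM, and 3 of its genes had at most 3 reads in every library. COL1A1 rose by 1.81 ± 0.49 and 2.19 ± 0.49, and whether it reached the limit for testing in its untreated libraries was not checked.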

How the data were processed

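Poly(A) mRNA of sorted HT29 cells was sequenced in 8 libraries. Reads were trimmed by the authors (Trim Galore 0.5.0) and aligned to GRCh38 with HISAT2 2.1.0, then quantified in SeqMonk and tested with DESeq2. The deposited values are log2 reads per gene, with each library scaled by the authors to the total of the largest and genes without a read entered as 0.9 reads before scaling. The annotation release, the use of strand and whether exons alone were counted are not given in the sources used here. The table held 0 value columns of other samples. Whole reads were recovered for 100% of genes, at a relative tolerance of 1e-04, and gave RPM, RPKM and depth. Depth limits counting error only.

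Genes whose mean reached 1 RPM were fitted in limma 3.58.1 (R 4.3.3) with a mean-dependent prior variance, 1 coefficient per group and all 8 libraries. The P values were adjusted by the Benjamini-Hochberg method over all genes tested and called below 0.05. The script was tested on simulated data. Confidence intervals are at 95%. Exons came from GENCODE release 44, in which 99.3% of gene identifiers were found, and promoters from RefSeq. Alternatives were other filters, thresholds, scalings and pseudocounts, limma-voom, blocks, fits of the compared groups alone and fits without each library.

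The genes and lists were chosen with earlier results of these data known. All genes matching the names were reported. From each other list, up to 2 genes per direction were named, those with the largest change in CCNB1-negative cells among genes called that way in both fractions. DUSP6, SPRY4, FOXJ1, TEKT1 and the genes sharing exons were named outside this rule, after their values were seen. 1 gene that this rule names is not reported here.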

Additional observations from a re-analysis of the deposited data

How the results depend on the processing

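The counts of genes higher after selumetinib (23 in each fraction) moved by less than 1.5 times under other scalings, limma-voom and the omission of single libraries. A mean of at least 10 RPM left 23 genes for testing. Of these, 15 were higher in CCNB1-negative cells, 3 lower in the CCNB1-positive fraction of treated cells and 1 lower by the interaction. The matching shares of all genes were 32.5%, 9.25% and 0.336%. Quantile normalization gave 7 lower in CCNB1-positive cells, 9 lower between treated fractions and 3 lower by the interaction, and moved the split of all genes in CCNB1-positive cells from 38.0% higher and 27.3% lower to 28.0% and 30.9%. With it 15.3% of all genes were lower between treated fractions and 2.17% by the interaction. Quantile normalization reversed TTLL10 (-0.0058), TTLL11 (-0.86), BBS10 (-0.73) and TTC8 (-0.077) in CCNB1-positive cells. The cause was not tested. Limma-voom gave 9 lower between treated fractions and 1 by the interaction, beside 12.8% and 0.591% of all genes. Fitting the untreated groups alone gave 1 lower, beside 0.907% of all genes. A threshold of 0.01 left 2 lower between treated fractions, beside 2.04% of all genes. A 2-fold requirement left 1 lower in CCNB1-negative cells, beside 21.0% of all genes. It left 14 higher and 1 lower in the CCNB1-positive fraction, beside 24.4% and 9.85%. Between treated fractions 0 were higher and 1 lower, beside 4.92% and 1.46%.

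Leaving out each library gave 21 to 23 higher and 2 to 4 lower in CCNB1-negative cells, 17 to 20 higher and 2 lower in the CCNB1-positive fraction, 1 to 2 higher and 1 to 5 lower between treated fractions, 0 between untreated fractions, and 0 higher and 0 to 2 lower by the interaction. With the replicate block, 8 were lower between treated fractions and 1 by the interaction, beside 9.94% and 0.485% of all genes. The counts of the responses to selumetinib were the same. Deviations of same-numbered libraries correlated at 0.352 between untreated and 0.428 between treated fractions, and at -0.088 to 0.082 otherwise, so the numbers do not pair all groups. A block for the pair of fractions gave 2 higher and 4 lower between untreated fractions, 3 higher and 15 lower between treated fractions, and 1 higher and 7 lower by the interaction. The shares of all genes with that block were 4.75% and 8.78%, 27.0% and 19.9%, and 19.3% and 7.81%.

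Depth limits the genes with few reads, such as TTLL7, BBS12 and the 5 not tested. With 2 libraries per group, some calls after selumetinib were lost when single libraries were left out. Calls near the threshold (IFT22, IFT122, BBS2, BBS7 and TPPP) were among them. IFT27, IFT46, IFT52, IFT74, TTC8, TTLL4, TTLL10 and TTLL11 also lost a call in this way. Overlapping exons leave the reads of TTLL3, IFT80, BBS1 and IFT22 uncertain, and also those of TTLL9, BBS2, IFT20, TTLL5 and IFT122. The labels contradict each other on treatment and fraction, while CCNB1, DUSP6 and SPRY4 differed in the direction of the descriptions.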
